A study of Mus musculus with 24 samples.

Results

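The genes of motile cilia were followed in whole mouse lung from birth to PND 42 (PND, postnatal day). The members were the genes whose symbols start with Dnah, Dnai, Dnali, Dnaaf, Cfap, Tekt, Rsph, Drc, Spef or Spag and then a number, together with Foxj1, Sntn and Lrrc23. They were taken from the array rows annotated to exactly 1 gene, and each gene was represented by its brightest row. This gave 85 genes out of 19938 genes with such a row. By family they were 15 dynein heavy chains (Dnah), 1 dynein light intermediate chain (Dnali1), 7 dynein assembly factors (Dnaaf), 31 cilia and flagella associated proteins (Cfap), 5 tektins (Tekt), 5 radial spoke head genes (Rsph), 3 genes of the dynein regulatory complex (Drc), 3 sperm flagellar genes (Spef), 12 sperm associated antigens (Spag) and the 3 genes Foxj1, Sntn and Lrrc23. The symbol rule also took in genes known for other work than the axoneme: Spag4, Spag5, Spag7, Spag9, Spag11a and Spag11b. Of these, Spag5 is a protein of the mitotic spindle and Spag9 is a scaffold of kinase signalling.

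The study asked how lung gene expression develops after birth in Scnn1b-Tg mice, which over-express the beta subunit of the epithelial sodium channel in airway club cells and serve as a model of dehydrated, mucus-obstructed airways. Left lung lobes of male C57BL/6N mice held in a specific pathogen free facility were compared between WT littermates and Scnn1b-Tg animals at PND 0 (under 24 hours old), 3, 10 and 42. Each of the 8 groups had 3 arrays, 24 in all, and each array carried RNA pooled from several animals: 2 animals are listed in the sample labels of 23 arrays and 1 in those of Scnn1b-Tg PND 42 replicate 3, whereas the study's methods give 3 per pool. All values are on the log2 scale of the normalised array signal, so a difference of 1 is a 2-fold difference. The SD and the p-values measure the spread between pools, not between animals.

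Motile cilia are the beating cell extensions that move mucus along the airways. They are carried by ciliated cells of the airway epithelium. The core of each, the axoneme, is a ring of microtubule doublets around a central pair: dynein arms drive the sliding, radial spokes and the dynein regulatory complex control it, tektins and other proteins line the inside of the doublets, and assembly factors build the dynein arms in the cytoplasm before transport. The transcription factor Foxj1, acting with regulatory factor X (RFX) proteins, switches this programme on. In whole lung, a lower level can come from fewer ciliated cells or from less RNA per ciliated cell, and these cannot be told apart here.

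RFX proteins are known to bind an inverted repeat, so the promoter windows of the members (250 bases before to 50 bases after the start of transcription, RefSeq, build GRCm38.p6) were searched for it. Windows were found for 71 of the 85 members. The inverted repeat, searched as GTNNCC and GGNNAC with 2 bases between them, was in a window of 12 of the 71 members (16.9%) and of 583 of 27025 genes of the table (2.16%). A shorter motif, GTTGCC on either strand, which can lie inside the first, was in 30 of 71 members (42.3%) against 14.1% of all genes. The forkhead motif TGTTTAC on either strand was in 5 of 71 members (7.04%) against 4.05%. These are matches of letters in a window and not evidence of binding. The first 4 stretches below belong to the members that differed between genotypes at some age and the others show the inverted repeat in 4 further members. Capitals mark the inverted repeat, or in Tekt1 the shorter motif, and each stretch is given 5′ to 3′ on the gene's strand. In Cfap52 and Drc3 neither motif lay in the 100 bases before the start used for the window. Cfap206 held the inverted repeat within 60 bases of its start. That start can lie inside the RefSeq gene span, as it does for Drc3, Cfap126, Tekt4 and Tekt1. On the plus strand the spans of Drc3, Cfap126 and Tekt4 begin at 60352881, 171113912 and 25454549. On the minus strand that of Tekt1 ends at 72362442.
Cfap52 (chr11:67965643-67965742, minus strand): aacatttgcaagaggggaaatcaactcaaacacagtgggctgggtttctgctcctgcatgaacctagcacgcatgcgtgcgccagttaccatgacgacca
Cfap206 (chr4:34730207-34730266, minus strand): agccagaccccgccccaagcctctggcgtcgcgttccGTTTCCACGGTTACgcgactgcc
Drc3 (chr11:60353280-60353379, plus strand): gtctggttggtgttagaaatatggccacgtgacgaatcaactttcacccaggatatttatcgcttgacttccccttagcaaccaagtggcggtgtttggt
Tekt1 (chr11:72361883-72361982, minus strand): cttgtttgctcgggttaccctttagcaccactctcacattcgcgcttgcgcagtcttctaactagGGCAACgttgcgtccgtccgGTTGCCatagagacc
Cfap298 (chr16:90935001-90935060, minus strand): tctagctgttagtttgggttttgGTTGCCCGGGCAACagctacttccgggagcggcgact
Cfap20dc (chr14:8666356-8666415, minus strand): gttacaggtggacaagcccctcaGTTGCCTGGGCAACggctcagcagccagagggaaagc
Cfap126 (chr1:171122940-171122999, plus strand): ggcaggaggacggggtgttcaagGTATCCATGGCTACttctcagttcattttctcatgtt
Tekt4 (chr17:25471407-25471466, plus strand): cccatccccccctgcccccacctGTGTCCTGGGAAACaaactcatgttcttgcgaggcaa

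The labels held at the level of the transgene. Scnn1b lay between 6.37 and 8.22 in the 12 WT arrays and between 9.62 and 10.94 in the 12 Scnn1b-Tg arrays, and it was higher in Scnn1b-Tg at each age (log2 differences of 2.93 to 3.29, SE 0.26, largest adjusted p = 2.02e-06 by limma with Benjamini-Hochberg adjustment). Arrays of 1 group correlated at 0.912 to 0.992 over all rows. Of the 85 members, 53 had a mean above 5 in at least 1 group and 32 did not. The brightest were Spag7 (mean over all arrays 7.93), Spag9 (7.83), Cfap36 (7.64) and Cfap20 (7.21). Spag7 and Spag9 are among the members known for other work. Of well known axonemal genes, Rsph9 averaged 6.62, Cfap206 6.52, Dnali1 5.70 and Dnah5 5.63, and the transcription factor Foxj1 averaged 5.43.

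**Figure D1:**
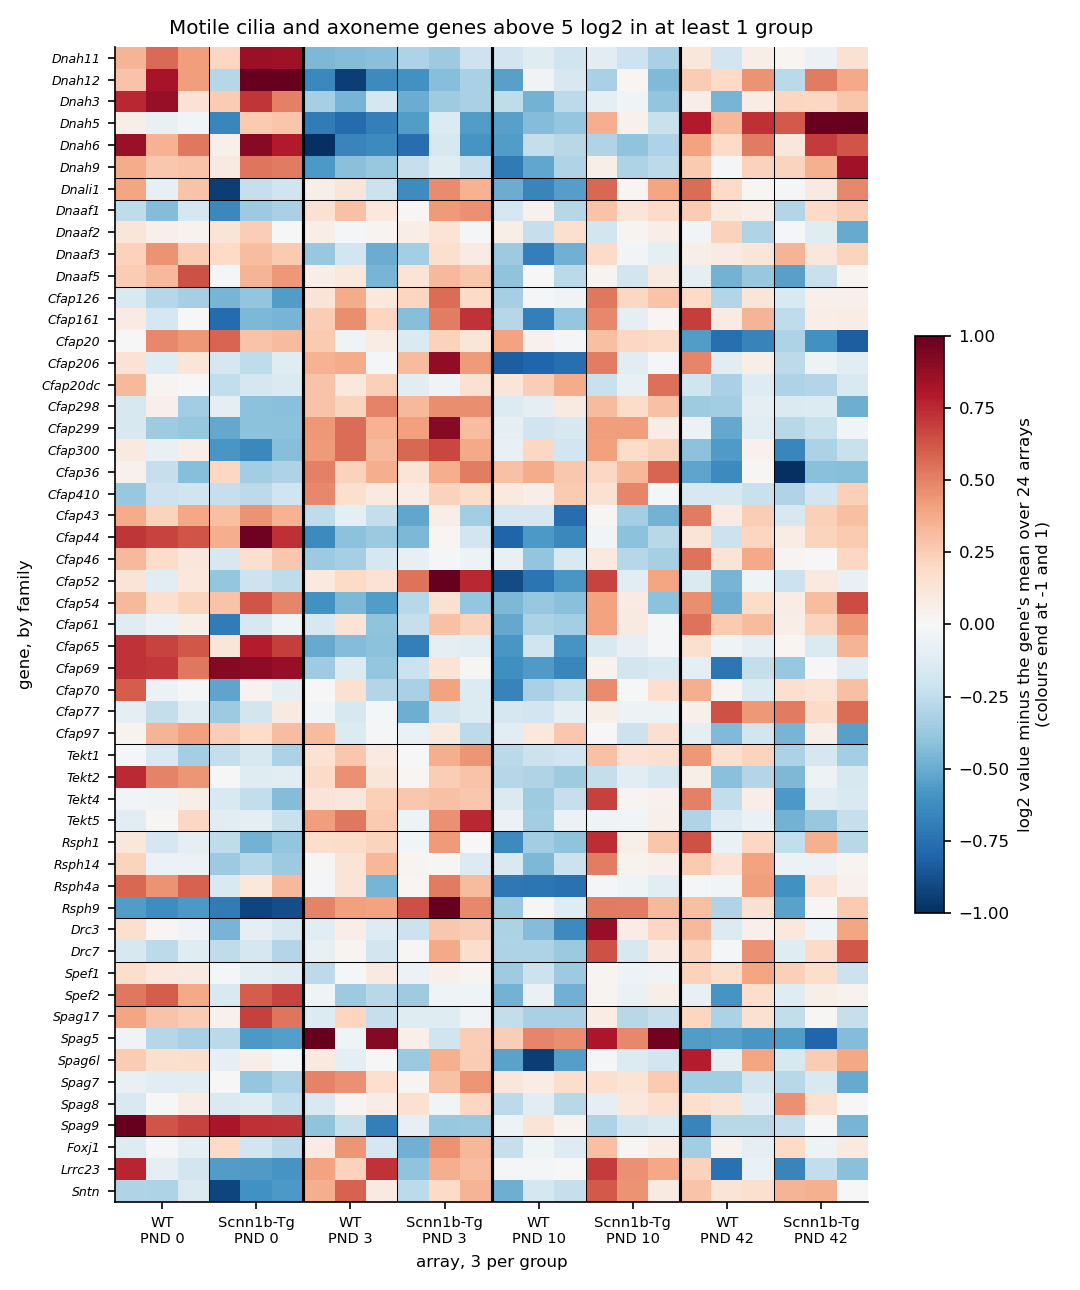
The 53 members with a mean above 5 log2 in at least 1 group (rows, by family) in the 24 arrays (columns, 3 per group). Colour gives the log2 value minus the gene's mean over all arrays. The WT PND 10 columns are mostly blue and the Scnn1b-Tg PND 10 columns are not. Most of the 6 dynein heavy chains shown are red at PND 0 in both genotypes. The dimmer heavy chains are not shown, and of all 15 heavy chains 7 lay higher at PND 3 than at PND 0 in WT.

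At PND 10 most members lay higher in Scnn1b-Tg than in WT lungs, and those called were doublet, spoke and regulatory complex proteins. The test, limma with Benjamini-Hochberg adjustment over 21789 rows and an adjusted p of at most 0.05, called 3 of the 85 members, all higher: Cfap52, Cfap206 and Drc3, where 0.427% of all rows were called in either direction and 0.243% higher. Without a threshold, 68 of the 85 lay higher and 17 lower in Scnn1b-Tg, with a median difference of 0.16, while the median over all rows was 0.00 and 50.7% of rows lay lower. In 36 members all 3 Scnn1b-Tg arrays lay above all 3 WT arrays, a pattern seen in 8.67% of all rows. In 2 members they lay below (8.58% of all rows). An unadjusted p under 0.05 was reached by 33 members, all higher, and by 8.65% of all rows in either direction. Without WT PND 10 replicate 1 the count of called members was 1.

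Cfap52 encodes a protein of the inside of the microtubule doublets. At PND 10 it read 5.25, 5.41 and 5.56 in WT and 6.82, 6.03 and 6.54 in Scnn1b-Tg. The groups did not overlap, and the 3 WT values were the lowest of all 24 arrays for this gene. The difference was 1.06 (SE 0.16, 95% CI 0.72 to 1.40, adjusted p = 0.00315), a 2.08-fold excess, and Cfap52 was the only member past both the test and a 2-fold change, which 0.151% of all rows passed. At PND 3 it already read 6.69 to 7.22 in Scnn1b-Tg against 6.24 to 6.34 in WT, with a difference of 0.64 that did not pass (adjusted p = 0.284). At PND 42 the groups overlapped.

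Cfap206, a protein at the base of a radial spoke, read 5.70, 5.73 and 5.77 in WT at PND 10 and 7.03, 6.42 and 6.51 in Scnn1b-Tg. The WT arrays were tightly grouped and below every array of every other group. The difference was 0.92 (SE 0.17, adjusted p = 0.0113), and it did not pass without WT PND 10 replicate 1 or 2 or Scnn1b-Tg PND 10 replicate 1 (adjusted p up to 0.145). Drc3, a subunit of the dynein regulatory complex, read 5.54, 5.42 and 5.22 in WT and 6.73, 5.93 and 6.06 in Scnn1b-Tg, a difference of 0.85 (SE 0.18, adjusted p = 0.0363). The groups did not overlap. Drc3 did not pass without any one of the 3 WT PND 10 arrays or without Scnn1b-Tg PND 10 replicate 1 (adjusted p up to 0.41). It also did not pass with only the compared arrays in the fit, with all rows tested or without eBayes moderation (adjusted p up to 0.115).

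Several well known axonemal genes fell just short of the threshold. Rsph1, a protein of the radial spoke head, read 4.99, 5.28 and 5.22 in WT and 6.36, 5.68 and 5.90 in Scnn1b-Tg (difference 0.82, adjusted p = 0.0544). Sntn, found at the tip of airway cilia, read 5.09, 5.40 and 5.35 against 6.19, 6.03 and 5.67 (0.68, adjusted p = 0.0655). Dnaaf3, a dynein assembly factor, differed by 0.53 (adjusted p = 0.0647). In these 3 genes the groups did not overlap, and the differences were under 1. Of the rest of the radial spoke genes, Rsph4a differed by 0.67 (adjusted p = 0.115), Rsph9 by 0.61 (0.144) and Rsph14 by 0.47 (0.108). Rsph6a, which had no group mean above 5, had means of 4.73 in WT and 4.72 in Scnn1b-Tg. Dnali1, a light intermediate chain of the inner dynein arms, differed by 0.89 (adjusted p = 0.118). Tekt1, a filament of the doublet wall, differed by 0.42 (0.118).

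As a description, the median differences at PND 10 varied by family, and so did the share of dim genes. Of the heavy chains 6 of 15 had a mean above 5 in at least 1 group. Of the radial spoke genes 4 of 5 did, and of the regulatory complex 2 of 3. The part of dimness in these medians was not tested. The radial spoke genes had the highest median difference of the families with several genes, 0.61 over 5 genes, and the dynein regulatory complex 0.52 over 3. The Cfap genes had a median of 0.27 with 28 of 31 higher, the assembly factors 0.20, the tektins 0.15 and the Spag genes 0.11. The dynein heavy chains had a median of 0.03 with 10 of 15 higher, and none passed. The largest heavy chain difference was that of Dnah5, 0.51, with means of 5.18 in WT and 5.69 in Scnn1b-Tg. Dnah9, an outer arm motor, differed by 0.34 (95% CI 0.03 to 0.65) and Dnah11, another outer arm motor, by -0.04 (95% CI -0.32 to 0.23).

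Foxj1 itself did not pass at PND 10. It read 5.20, 5.39 and 5.30 in WT and 5.73, 5.44 and 5.50 in Scnn1b-Tg, a difference of 0.26 (adjusted p = 0.818). Its 95% CI, -0.13 to 0.65, holds both 0 and the 0.42 of Tekt1. The regulators of multiciliated cell formation, a list of 34 measured genes (among them Mcidas, Gmnc, Ccno, Myb and the Rfx genes), had none called in either direction at PND 10 (3 had an unadjusted p under 0.05 in each direction). At this age 0.427% of all rows were called. Of the 34 regulators 21 lay higher and 13 lower, with a median of 0.11, and 24 had a mean above 5 in at least 1 group. Rfx3 differed by -0.09 and Mcidas by -0.20.

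Ciliary genes outside the symbol rule mostly lay higher as well. Of 66 other axoneme and ciliary motility genes, 3 were called higher and none lower at PND 10, and 64 lay higher. Of all rows 0.243% were called higher. The 3 were Saxo2, a microtubule binding protein (0.85, adjusted p = 0.00334), Nme5, a protein of the radial spoke (0.83, adjusted p = 0.0186) and Ak8, an adenylate kinase of the axoneme (0.75, adjusted p = 0.0359). Of 47 other genes of ciliated cells, 8 were called higher, with Kcnrg (1.13, adjusted p = 0.00619) and Fam216b (1.05, adjusted p = 0.0186) the largest. The intraflagellar transport and BBSome genes, which build both motile and primary cilia, had none called among 41 (4 had an unadjusted p under 0.05, all higher), with 32 higher and a median of 0.14.

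Marker lists of other cells were measured in the same arrays. No mesothelial or general epithelial marker was called at PND 10, of 4 and 6 measured (0.427% of all rows were called). The mean of 4 mesothelial markers was 5.63 to 5.99 in WT arrays and 6.27 to 6.44 in Scnn1b-Tg arrays, and that of 6 general epithelial markers was 7.88 to 7.93 in WT and 8.12 to 8.17 in Scnn1b-Tg, and in both lists the means of the genotypes did not overlap. Of the 7 goblet cell markers 2 were called lower, and their mean went the other way, 6.63 to 6.79 in WT and 5.93 to 6.24 in Scnn1b-Tg. Among them Clca1, a protein secreted with mucus, differed by -2.47 (adjusted p = 1.88e-06). Of the 7 club cell genes 1 was called, Scgb3a1, which was higher by 1.65 (adjusted p = 0.0259). Of the 7, 3 lay higher and 4 lower, with a median of -0.26. Scgb1a1 differed by -0.66 without passing (adjusted p = 0.434). Macrophage markers lay at 7.04 to 7.30 in WT and 7.34 to 7.91 in Scnn1b-Tg. Markers of sperm, the other cell that uses axonemal genes, had a mean of 3.93 to 4.06 at PND 10, below the level of 5. The part of these lists in the difference of the members was not tested.

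**Figure D2:**
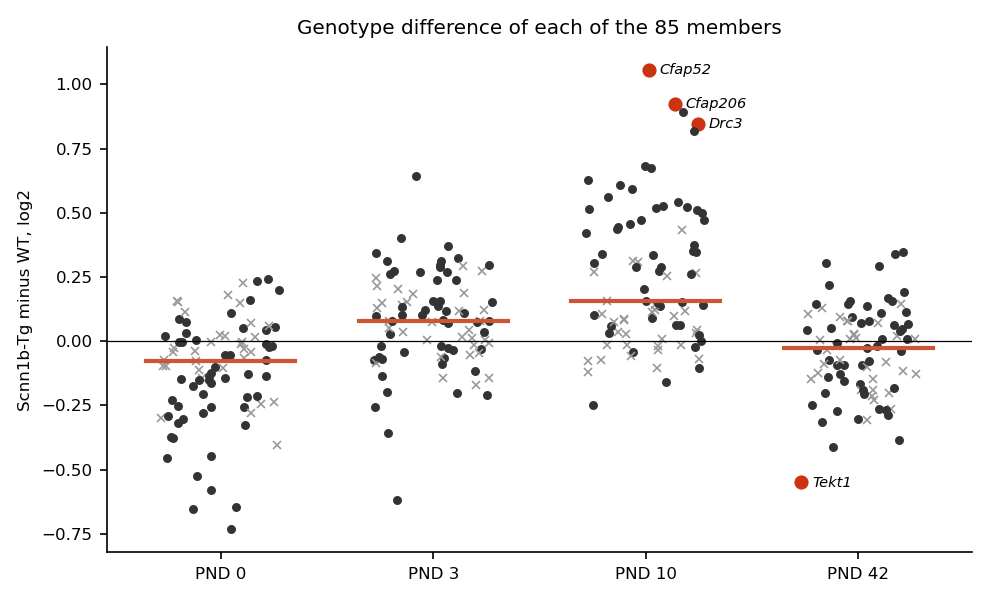
Difference between Scnn1b-Tg and WT (log2, vertical axis) of each of the 85 members at 4 ages. Dark circles are members with a mean above 5 in at least 1 group, grey crosses the others, red circles members that passed the test, and the orange line the median of the 85. The median is -0.08, 0.08, 0.16 and -0.03 from PND 0 to PND 42, and the members that passed are Cfap52, Cfap206 and Drc3 at PND 10 and Tekt1 at PND 42.

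At the other ages few members differed. At PND 0 none of the 85 passed (0.0229% of rows did), although 61 of 85 lay lower in Scnn1b-Tg, as did 55.1% of all rows. An unadjusted p under 0.05 was reached by 11, all lower (4.54% of all rows in either direction). In 23 members all 3 Scnn1b-Tg arrays lay below all 3 WT arrays (7% of all rows), and in 4 above (5.51%). The largest difference was that of Lrrc23, a radial spoke protein, at 7.42, 6.57 and 6.48 in WT and 6.10, 6.09 and 6.07 in Scnn1b-Tg (-0.73, adjusted p = 0.796). Dnali1 differed by -0.65 (adjusted p = 0.994) and Tekt2, the member with the lowest p, by -0.64 (adjusted p = 0.141). At PND 3 none passed (0.0459% of rows did), 57 of 85 lay higher (50.4% of all rows) and 5 had an unadjusted p under 0.05 (7.35% of all rows).

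At PND 42 a single member passed, Tekt1, where 0.909% of rows passed and 0.0918% were lower. Tekt1 read 5.19, 4.92 and 4.98 in WT and 4.44, 4.59 and 4.42 in Scnn1b-Tg, with no overlap and a difference of -0.55 (SE 0.11, adjusted p = 0.016). It is a dim gene, with a mean of 4.76 over all arrays and of 5.03 in WT at PND 42. Over the 85 members 39 lay higher and 46 lower, where 50.5% of all rows lay higher. The difference did not pass without WT PND 42 replicate 1 or without Scnn1b-Tg PND 42 replicate 3, the array whose labels list 1 animal (adjusted p up to 0.0932), nor with array weights or the compared arrays alone (adjusted p up to 0.235).

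**Figure D3:**
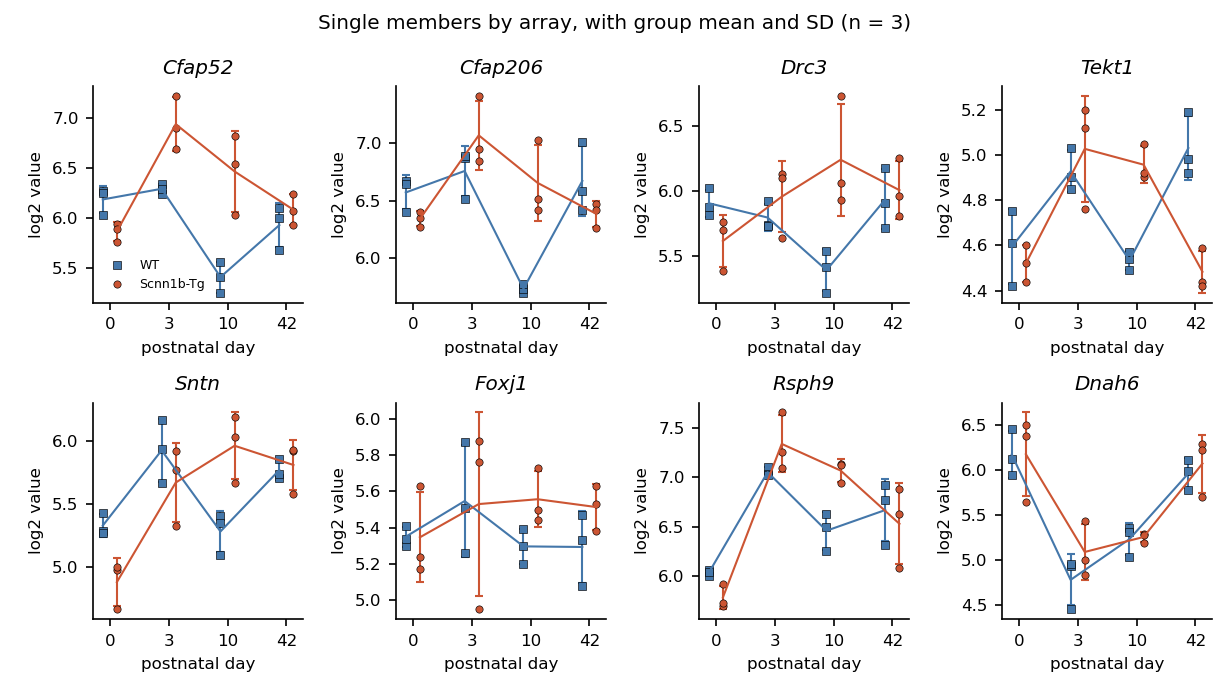
Log2 values of 8 members in each array (squares WT, circles Scnn1b-Tg) by postnatal day, with lines through group means and bars of 1 SD (n = 3). Cfap52, Cfap206 and Drc3 are lowest in WT at PND 10, Tekt1 is lowest in Scnn1b-Tg at PND 42, Rsph9 rises from PND 0 to PND 3 and Dnah6 falls over that interval.

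Between PND 0 and PND 3 members were called in both directions. In WT 17 of 85 rose and 21 fell, and in Scnn1b-Tg 31 rose and 15 fell, in intervals where 46.6% and 49.4% of all rows were called. In WT 21.7% of all rows rose and 24.9% fell, which is near the shares of the members. In Scnn1b-Tg 36.5% of the members rose and 17.6% fell, against 24.8% and 24.6% of all rows. Within WT, the Cfap genes (6 up, 8 down), the assembly factors (2 and 2) and the Spag genes (2 and 2) went both ways. Most called dynein heavy chains fell, 7 of 9 in WT. Dnah6, an inner arm motor, went from 6.45, 5.94 and 6.12 to 4.45, 4.93 and 4.95 in WT (-1.39, adjusted p = 1.33e-05) and fell by 1.09 in Scnn1b-Tg. Dnah12, Dnah3, Dnah11, Dnah9, Dnah5 and Dnah2 fell in WT as well, by 1.25 to 0.35, while Dnah14 and Dnah17 rose by 0.40 and 0.30. Dnah14 and Dnah17 had no group mean above 5. The 33 rows of Dnah3 all lay lower in both genotypes, 31 of them called in each. The rows of Dnah10 did not go together: 4 of 5 lay lower in WT, down to -0.95, and its brightest row lay higher by 0.41. Cfap44 and Cfap65, a dynein tether and a flagellar protein, fell by 1.14 and 1.12 in WT.

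Other members rose over the same days. Rsph9, a radial spoke head protein, went from 6.06, 6.00 and 6.04 to 7.11, 7.03 and 7.02 in WT (1.02, adjusted p = 6.56e-05) and rose by 1.56 in Scnn1b-Tg (adjusted p = 3.09e-07), with no overlap in either. Cfap299 rose by 0.74 in WT and 0.99 in Scnn1b-Tg, and Sntn by 0.60 and 0.79. Cfap52 and Cfap206 rose in Scnn1b-Tg by 1.07 and 0.73 and did not pass in WT. Of the 5 tektins, 4 rose in Scnn1b-Tg and 3 in WT. Direction went with gene length: of the 40 members whose genes span over 50 kb, 17 fell and 3 rose in WT, and of the 45 shorter ones 4 fell and 14 rose. All rows showed the same tendency, with 46.9% of long and 17.3% of shorter genes called lower. Its part in the result was not tested. The change did not differ between genotypes in the test for any member, nor for any row (0% of rows), and 9 members had an unadjusted p under 0.05 (4.75% of all rows).

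Between PND 3 and PND 10 the WT and the Scnn1b-Tg lungs differed in how many members passed. In WT none of the 85 rose and 12 fell, where 5.03% of rows were called and 1.47% lower. They were Cfap206 (-1.02, adjusted p = 0.000504), Cfap52 (-0.88, adjusted p = 0.00168), Cfap161, Spag6l, Rsph1, Sntn, Cfap299, Tekt2, Tekt5, Cfap45, Rsph14 and Tekt1. Cfap206 went from 6.87, 6.89 and 6.51 to 5.70, 5.73 and 5.77. In Scnn1b-Tg none passed in either direction, where 3.27% of rows were called, and 11 had an unadjusted p under 0.05 (14.3% of all rows). Cfap206 was the only member called in WT with a 2-fold change (1.29% of all rows), and without WT PND 3 replicate 2 the count of 12 was 4. The difference between genotypes in this change passed for no member, where 0.00918% of rows passed, and 10 had an unadjusted p under 0.05 (6.64% of all rows), so the changes are not shown to differ.

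Between PND 10 and PND 42, 30 of the 85 members rose and 6 fell in WT. Of all rows 30.4% were called there, 9.74% higher and 20.7% lower. Dnah5, an outer arm motor, went from 5.09, 5.20 and 5.24 to 6.42, 5.96 and 6.36 (1.07, adjusted p = 0.00044) and Spag6l, a protein of the central pair, rose by 1.04. In Scnn1b-Tg 9 rose (10.6%) and 12 fell (14.1%), where 29.8% of rows were called, 10.4% higher and 19.4% lower. The rises were thus near the share of all rows and the falls below it. Dnah5, Dnah6 and Dnah9 rose there too, by 0.91, 0.82 and 0.64. Falls in Scnn1b-Tg included Spag5 (-1.35), Cfap36 (-1.02), Lrrc23 (-0.96), Cfap20 (-0.81), Cfap300, a dynein assembly protein (-0.67), and Tekt1 (-0.47). Spag5 and Cfap20 fell in WT also, by 0.96 and 0.80. The WT means of Cfap36 (7.95 to 7.25), Lrrc23 (6.65 to 6.46) and Cfap300 (6.13 to 5.85) went down too, and that of Tekt1 went up.

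The change from PND 10 to PND 42 differed between genotypes for 2 members, where 0.321% of rows passed: Tekt1 (-0.97, SE 0.16, adjusted p = 0.00608) and Cfap206 (-1.21, SE 0.24, adjusted p = 0.0346). Tekt1 rose by 0.50 in WT and fell by 0.47 in Scnn1b-Tg. The difference in Cfap206 did not pass when any one of 7 arrays was left out, which were all 3 of WT PND 10, WT PND 42 replicates 1 and 3, Scnn1b-Tg PND 10 replicate 1 and Scnn1b-Tg PND 42 replicate 2 (adjusted p up to 0.0882), nor without eBayes moderation, with array weights or with all rows tested (adjusted p up to 0.0894). Of the 85 members 22 had an unadjusted p under 0.05 (9.85% of all rows), and 73 had the lower change in Scnn1b-Tg, with a median of -0.24 against 0.00 for all rows. Rsph14 (-0.78, adjusted p = 0.0622) and Rsph1 (-1.13, adjusted p = 0.0725) came nearest among those that did not pass. These comparisons share the PND 10 arrays with the comparison of genotypes and with the preceding interval, so they are not separate evidence of one another.

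**Figure D4:**
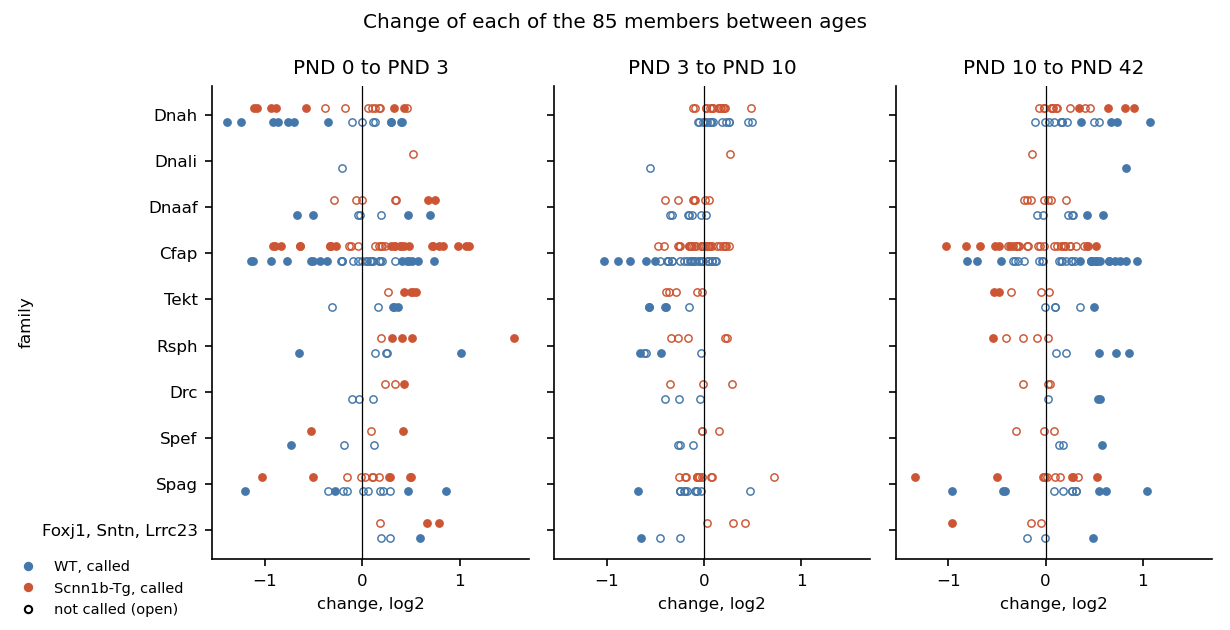
Change (log2, horizontal axis) of each of the 85 members over 3 age intervals, by family (rows). Blue is WT, orange Scnn1b-Tg, filled points passed the test and open points did not. Filled heavy chains (Dnah) lie mostly left of 0 from PND 0 to PND 3. The 12 filled WT points from PND 3 to PND 10 lie left of 0, and 30 of 36 filled WT points lie right of 0 from PND 10 to PND 42.

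Many members had their lowest level in WT at PND 10. Of 85 members, 38 (44.7%) had their lowest WT mean at PND 10, where 14.3% of all rows did, and in Scnn1b-Tg 6 (7.06%) had theirs there, where 16.1% did. In Scnn1b-Tg the lowest mean was most often that of PND 0, in 44 members (51.8%) and in 39% of all rows. Among all 8 groups, 27 (31.8%) were lowest in WT at PND 10 (8.54% of all rows) and 24 (28.2%) in Scnn1b-Tg at PND 0 (23.3% of all rows). For Cfap206, Cfap52, Drc7, Rsph4a and Spag6l all 3 WT PND 10 arrays lay below all other 21, as they did for 0.5% of all rows. The median deviation of the 85 from their own means was -0.16, -0.18 and -0.20 in the WT PND 10 arrays, which was below all others but Scnn1b-Tg PND 0 replicate 1 at -0.21. It was 0.10, -0.01 and -0.01 in the Scnn1b-Tg PND 10 arrays.

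**Figure D5:**
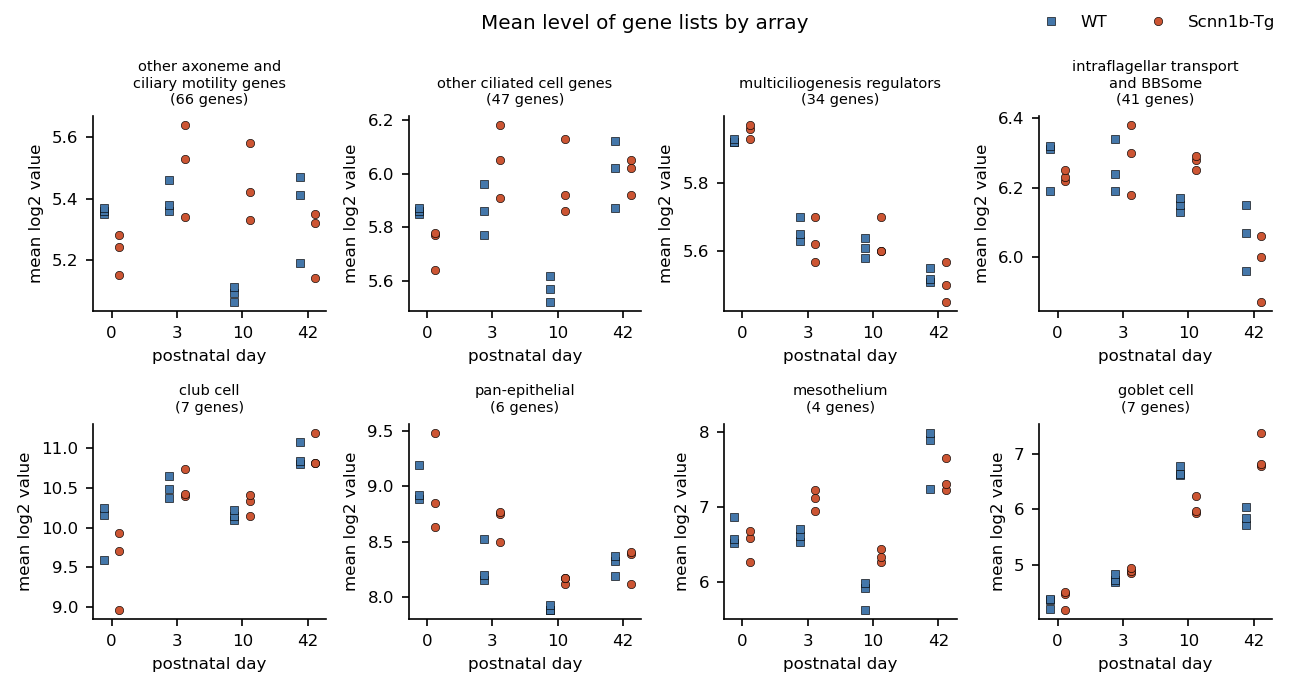
Mean log2 level of 8 gene lists in each array (squares WT, circles Scnn1b-Tg) by postnatal day. The other axoneme and ciliated cell lists are lowest in WT at PND 10 (5.06 to 5.11 and 5.52 to 5.62). The regulators of multiciliated cells show no such drop. The mesothelial and the general epithelial lists are also lowest in WT at PND 10 (5.63 to 5.99 and 7.88 to 7.93).

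Many of the members above 5 varied together between arrays of the same group. Over the 24 arrays, the deviation of each of the 53 from its group means was correlated with the median deviation of the others. The correlation was 0.57 in the median gene (lowest -0.54, highest 0.86), and 30 lay above 0.5. Of all genes 5.04% lay above 0.5 against the median of the 53. That share includes dim genes, whereas the dimmer members were left out, so the shares are not like for like. The 53 share libraries and animals, so this is a description of common variation. The genes outside the list with the most similar pattern were Stk33 (0.928), Cdhr3 (0.862) and Zmynd10 (0.846), followed by Odf3b, Ak7, Wdr78, Nme5, Ttc29, Kif9 and Catip.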

How the data were processed

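RNA from 24 pools of left lung lobe (3 per genotype and age) was measured on whole-transcript arrays of Affymetrix (Mouse Gene 1.0 ST). The authors deposited 1 log2 value per array and row, made with Partek (version 6.5 in the submitters' processing notes) by RMA background correction, quantile normalisation and median polish. The genome build was not used here. Quantile normalisation gives all arrays nearly the same distribution, so a shift common to most genes would be removed. The number of arrays limits the precision.

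Of 35556 rows, 21789 were annotated to 1 gene, 1621 to several and 12146 to none. Symbols came from the platform annotation, with 21698 rows matched through gene ID and 0 symbols changed. Dnai1 had no row of its own, and 7 rows shared by several genes including a member were left out. Groups came from the sample labels. Group means over 24 arrays were fitted with limma (version 3.58.1 in R 4.3.3, 16 residual degrees of freedom), p-values were adjusted by the Benjamini-Hochberg method over 21789 rows within a comparison, and genes with an adjusted p up to 0.05 counted as called. The study's methods used ANOVA with contrasts. On simulated data for Scnn1b-Tg against WT at PND 10, with 21789 rows, the test recovered 15 of 50 genes changed by 0.5 on the log2 scale, 43 of 50 changed by 1 and 50 of 50 changed by 1.5, with 7 false among 165 calls. The members, the other gene lists and the rule for named genes were chosen with earlier results of these data known. Named genes were Foxj1, Sntn, Lrrc23 and Cfap52, the largest changes among members called in a comparison, the brightest of each family, the Spag genes with other functions, the genes with the lowest p of each list, and the 10 nearest genes outside the members. Other genes named were chosen after their values were seen. Alternatives were other fits, filters, scalings, thresholds, rows per gene and leaving out each array. Gene lengths are RefSeq gene spans.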

Additional observations from a re-analysis of the deposited data

Results flagged for a closer look

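Both results below were picked out because the change from PND 10 to PND 42 differed between genotypes in the test of that difference (limma, Benjamini-Hochberg adjustment). For Tekt1 the change was 0.97 lower on the log2 scale in Scnn1b-Tg (difference -0.97, adjusted p = 0.00608), with a rise in WT and a fall in Scnn1b-Tg. For Cfap206 it was -1.21 (adjusted p = 0.0346), with a rise of 0.94 in WT. Tekt1 averaged 4.76 over all arrays, below the level of 5. Groups of 3 arrays are too small for a test of single outlying arrays.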

How the results depend on the processing

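Counts of called members were recomputed under 11 other settings, at stricter thresholds and without each of 24 arrays. No called value of a named gene changed sign. Of the values not called, Foxj1 at PND 0 (-0.15 to 0.08 without single arrays) and at PND 3 (-0.19 to 0.27) and Sntn at PND 42 (-0.02 to 0.16) did. With the compared arrays alone, 8 members were called at PND 10, among them 2 of the 3 of the report, 0 at PND 42 and 1 from PND 3 to PND 10 in Scnn1b-Tg. With an intensity trend and robust prior the last was 2. With array weights, 2 were called at PND 0, 2 at PND 3, 11 at PND 10, 0 at PND 42, 20 from PND 3 to PND 10 in WT and 7 in Scnn1b-Tg, and 1 in each difference between genotypes over PND 3 to PND 10 and PND 10 to PND 42. With rows above 5 alone, 5 were called at PND 10 and 1 from PND 3 to PND 10 in Scnn1b-Tg. With all rows tested, 7 were called from PND 3 to PND 10 in WT and 1 in the difference over PND 10 to PND 42. With a 2-fold change also required, 1 was called at PND 10, 0 at PND 42, 6 from PND 0 to PND 3 in each genotype, 1 from PND 3 to PND 10 in WT, 2 from PND 10 to PND 42 in each genotype and 1 in the last difference. At an adjusted p of at most 0.01 these were 1, 0, 26 (Scnn1b-Tg), 3, 23 in WT, 13 in Scnn1b-Tg and 1. The causes were not tested. Without single arrays the counts ranged from 0 to 0 at PND 0, 0 to 1 at PND 3, 1 to 6 at PND 10, 0 to 1 at PND 42, 30 to 40 in WT and 31 to 47 in Scnn1b-Tg over PND 0 to PND 3, 4 to 14 and 0 to 2 from PND 3 to PND 10, 28 to 38 and 16 to 22 from PND 10 to PND 42, and 0 to 0, 0 to 1 and 1 to 5 in the 3 differences. Over 61 named results, 35 of the 46 called kept the call in the 11 other settings and without each array, stricter thresholds aside. Cfap52 at PND 10 and the difference in Tekt1 were among them. The difference in Tekt1, -0.97, did not reach a 2-fold change.

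With the replicate number as a block, 1 member was called from PND 3 to PND 10 in Scnn1b-Tg in place of 0. The samples share only a number: 5 of 12 same-numbered pairs of arrays had deviations that correlated above 0.1.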

Other observations

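Other ciliary genes were counted over the same intervals. Of the 66 other axoneme and ciliary motility genes, 14 fell and none rose from PND 3 to PND 10 in WT (1.47% of all rows fell), and 23 rose and 5 fell from PND 10 to PND 42 (9.74% and 20.7%). In Scnn1b-Tg 1 fell over the first interval (1.18% of all rows), and 1 rose and 16 fell over the second (10.4% and 19.4%). Among the 47 other ciliated cell genes, 24 rose and none fell in WT from PND 10 to PND 42, and 7 rose and 9 fell in Scnn1b-Tg. Of the 2 lists, Saxo2 and Cyp2s1 were called lower in the difference between genotypes over that interval. These counts share the WT PND 10 arrays with the comparison of genotypes at PND 10.

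The mean of the regulators of multiciliated cell formation was highest at PND 0. From PND 0 to PND 3, 13 of 34 fell and 4 rose in WT, where 24.9% of all rows fell and 21.7% rose, and 14 fell and 5 rose in Scnn1b-Tg, where 24.6% fell and 24.8% rose. Of the 41 intraflagellar transport and BBSome genes, 8 fell and 2 rose from PND 10 to PND 42 in WT, and 8 is near the 20.7% of all rows that fell. In Scnn1b-Tg 14 fell and 0 rose, where 19.4% of all rows fell.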
